A study of Mus musculus with 172 samples.

Results

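The mitochondrial ribosomal protein genes are the nuclear genes with Mrpl and Mrps symbols. They were chosen by symbol alone, as every listed gene whose name begins with Mrpl or Mrps followed by a digit. This gave 76 genes (47 Mrpl and 29 Mrps) of 14896 genes listed in cerebral cortex and 14107 listed in liver, and each of the 76 was listed in both tissues. By present nomenclature 49 of them encode proteins of the large subunit and 26 of the small subunit. Mrps36, the remaining gene, keeps its symbol although its product is now placed with the oxoglutarate dehydrogenase complex.

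Mitochondria keep their own ribosome, which translates the few respiratory chain proteins encoded by mitochondrial DNA. Its ribosomal RNA is made inside the organelle, but its proteins are encoded in the nucleus, translated in the cytosol and imported. Some of these proteins descend from bacterial ribosomal proteins and others are found only in mitochondria.

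The study asked how sleep loss acts on different genetic backgrounds, using the BXD panel of inbred mouse lines derived from crosses of C57BL/6J (B6) and DBA/2J (D2). Male mice of 11 to 14 weeks, none with a transgene in the labels, were kept awake by gentle handling for 6 h from light onset (SD) or left undisturbed (Ctr), and both were killed at ZT6, 6 h after light onset. The 39 pools analysed are 33 BXD/RwwJ lines, the parental pools B6-1, B6-2, D2-1 and D2-2, and the reciprocal crosses BD-F1 and DB-F1, each with 1 Ctr and 1 SD library per tissue. The labels also name BXD103 as 73b, BXD96 as 48a and BXD97 as 65a. BXD73, BXD48 and BXD65 are among the 33 as well, and each was counted as a separate line. A library is RNA pooled from several mice of a genotype, with fewer mice for BXD79, BXD85 and BXD101, so the spread between single mice is not seen. The p-values measure the spread between pools, and the response of a single line to SD has no replicate and was not tested.

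Values are log2 CPM, the log2 of a gene's reads after scaling to the size of the library, so a difference of 1 is a doubling. Libraries held 18995492 to 28998853 reads in cortex and 4681101 to 8269401 in liver, and the tissues were normalized apart, so levels are not compared between them. In whole tissue, fewer cells of a type and less RNA per cell cannot be told apart. All 6 neuronal markers were listed in cortex and all 6 hepatocyte markers in liver. In cortex the summed choroid plexus markers (3 of 4 listed) ranged from 2.90 to 7.86 log2 CPM over Ctr pools and from 2.58 to 8.65 over SD pools. In liver all 4 B cell markers fell with SD, their summed level going from a median of 3.63 (range 2.69 to 4.72) to 2.37 (range 1.20 to 3.66). The part of these cells in the results was not tested.

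One library in each tissue stood apart. In the Ctr cortex library of BXD90 the members lay 0.32 log2 CPM (median over members) above their medians over the Ctr pools, against -0.08 to 0.08 in the other cortex libraries. In the SD liver library of BXD70, the shallowest of all, they lay 0.58 above, against -0.15 to 0.28 in the other liver libraries. The counts of members that rose or fell in each tissue and of outlying changes are given with and without them. Other counts rest on all pools unless a sentence says otherwise.

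The 250 bases before the RefSeq start (build GRCm38.p6, 5' to 3') are printed for 5 members, to show the start regions of genes to which the results return and of Mrpl32. Mrps6 had the largest rise in both tissues, Mrpl55 and Mrpl2 the largest falls in cortex, Mrpl35 a rise in cortex and a difference between the parental strains, and Mrpl32 holds more than one of the motifs searched. Capitals mark matches on either strand to CCGGAA (the core bound by ETS factors such as GABP), the NRF1 motif, AAGATGGCG (YY1) or CACGTG (the E-box).
Mrps6 (chr16:92058086-92058335, plus strand): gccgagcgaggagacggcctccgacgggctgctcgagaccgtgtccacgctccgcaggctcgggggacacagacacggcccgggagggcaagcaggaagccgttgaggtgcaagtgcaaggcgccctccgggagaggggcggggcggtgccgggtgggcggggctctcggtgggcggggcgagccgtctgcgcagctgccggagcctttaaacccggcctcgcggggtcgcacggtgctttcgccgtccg
Mrpl55 (chr11:59202236-59202485, plus strand): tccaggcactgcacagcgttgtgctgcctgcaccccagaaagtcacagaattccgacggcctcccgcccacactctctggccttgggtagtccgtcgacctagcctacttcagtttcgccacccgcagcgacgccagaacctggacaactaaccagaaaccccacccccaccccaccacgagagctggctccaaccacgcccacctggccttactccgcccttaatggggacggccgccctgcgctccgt
Mrpl2 (chr17:46645987-46646236, plus strand): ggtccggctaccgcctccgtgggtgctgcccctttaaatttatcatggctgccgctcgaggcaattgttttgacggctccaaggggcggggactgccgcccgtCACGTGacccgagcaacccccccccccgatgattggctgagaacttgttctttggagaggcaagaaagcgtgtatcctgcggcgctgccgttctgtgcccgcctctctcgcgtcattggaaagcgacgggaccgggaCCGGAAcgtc
Mrpl35 (chr6:71823785-71824034, minus strand): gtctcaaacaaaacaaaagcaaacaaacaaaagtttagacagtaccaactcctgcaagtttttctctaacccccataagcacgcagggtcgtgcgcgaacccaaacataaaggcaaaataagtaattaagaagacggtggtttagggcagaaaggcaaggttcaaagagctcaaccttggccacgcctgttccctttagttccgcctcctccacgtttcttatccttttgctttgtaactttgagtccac
Mrpl32 (chr13:14613038-14613287, minus strand): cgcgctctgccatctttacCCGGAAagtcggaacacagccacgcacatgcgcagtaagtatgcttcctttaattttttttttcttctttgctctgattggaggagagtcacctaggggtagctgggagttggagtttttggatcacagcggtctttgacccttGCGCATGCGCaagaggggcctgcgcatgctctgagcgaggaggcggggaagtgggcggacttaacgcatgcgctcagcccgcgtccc

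RefSeq start regions matched 67 of the 76 members, with 73 starts. CCGGAA stood in 36.99% of these regions and in 12.03% of all 32851 regions of that length. The NRF1 motif stood in 12.33% and 3.74%, AAGATGGCG in 2.74% and 0.61%, and CACGTG in 9.59% and 6.02%. A match is a run of letters and not a measured site.

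In cortex, more of these genes rose than fell with sleep deprivation, by small amounts. Of the 76 members 37 rose, where 33.0% of all cortex genes rose, and 13 fell, where 35.4% of all cortex genes fell (limma on log2 CPM; p-values were adjusted by the method of Benjamini-Hochberg across the tissue's whole table, with a threshold of 0.05). The other 26 did not pass. Both directions together, 65.8% of members were called, close to the 68.4% of all cortex genes. The median change over members was 0.07 log2 CPM, or 4.72%, against -0.0097 over all genes, and single members ranged from -0.23 to 0.27. With the Ctr and SD pools of a line paired, 43 rose and 15 fell, the calls gained being Mrpl38, Mrpl41, Mrpl48, Mrpl49, Mrpl9, Mrps14, Mrps23 and Mrps5, while 76.3% of all cortex genes were then called. Without BXD90, 40 rose and 12 fell, and 46 rose and 15 fell with pairing as well. Of all cortex genes 33.2% rose and 35.8% fell without BXD90, and 37.2% rose and 40.5% fell with pairing as well.

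Both subunits showed rises. Of the large subunit genes 24 of 49 rose and 7 fell, with a median change of 0.07 log2 CPM. Of the small subunit genes 13 of 26 rose and 6 fell, with a median of 0.05. With lines paired the counts were 27 up and 9 down of the large and 16 up and 6 down of the small subunit genes. Among genes of bacterial descent 26 of 46 rose and 10 fell, and among those particular to mitochondria 11 of 29 rose and 3 fell (with lines paired, 29 up and 10 down, and 14 up and 5 down). Of the 27 members with CCGGAA in a start region 11 rose and 4 fell, and of the 40 matched members without it 21 rose and 6 fell. Differences between these classes were not tested.

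Mrps6 (chromosome 16, plus strand, mm9 positions 92058515 to 92112472), a small subunit protein of bacterial descent, had the largest rise. Its cortex level ran from 3.46 through a median of 3.66 to 4.45 log2 CPM over the Ctr pools and from 3.65 through a median of 3.96 to 4.25 over the SD pools. The ranges overlapped, but SD exceeded Ctr in 37 of 39 pools, and the change was 0.27 ± 0.03 (limma, adjusted p = 2.92e-11), where the error here and below is the SE with 39 pools a condition. In liver its level ran from 4.04 through a median of 4.31 to 4.56 in Ctr and from 4.16 through a median of 4.52 to 5.06 in SD. There it rose in 34 of 39 pools, by 0.25 ± 0.03 (limma, adjusted p = 2.11e-09), the largest liver rise as well.

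Mrps6 shares 696 exon bases on the same strand with Slc5a3, the myo-inositol transporter gene, so their reads are hard to separate. Slc5a3 rose in 39 of 39 cortex pools by 0.93 ± 0.04 (limma, adjusted p = 4.25e-32) and in 39 of 39 liver pools by 1.53 ± 0.07 (limma, adjusted p = 1.16e-31). In BXD56 cortex Mrps6 went from 4.45 in Ctr to 4.10 in SD, a change of -0.35 against a median of 0.29 over pools. The same Ctr library held the highest Ctr level of both genes, with Slc5a3 at 5.95. Whether reads of one gene were counted to the other was not tested.

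**Figure D1:**
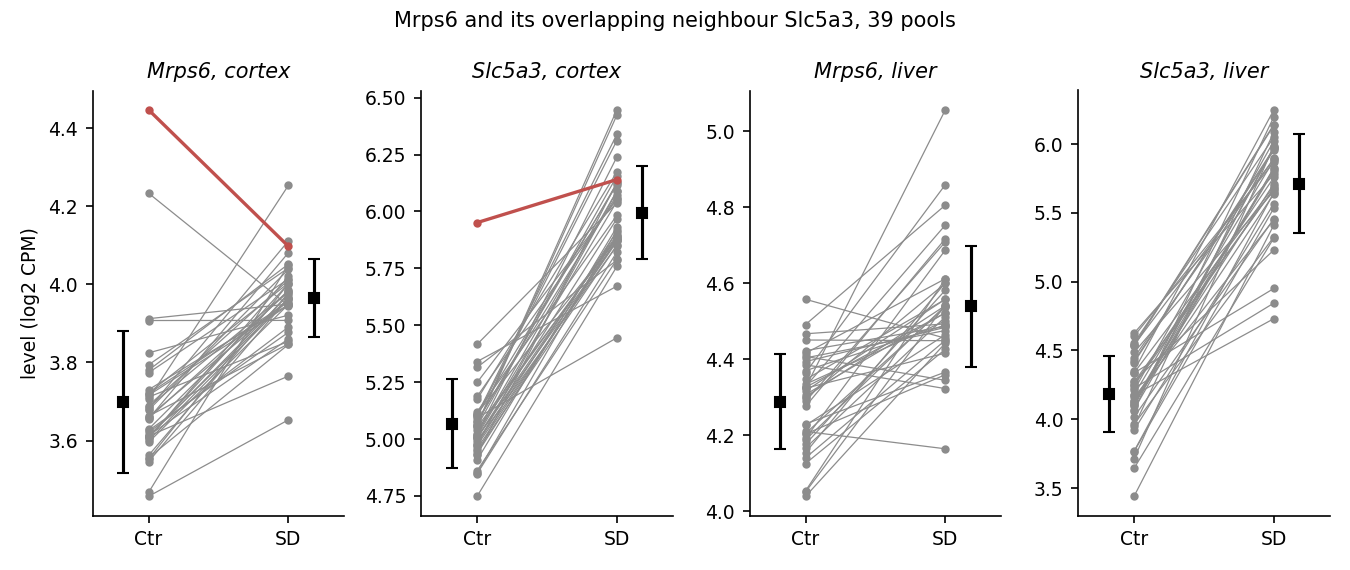
Level (log2 CPM) of Mrps6 and of its overlapping neighbour Slc5a3 in Ctr and SD in each tissue, 1 line per pool (39 pools), with black squares and bars for the mean and SD over pools and BXD56 cortex in red. Slc5a3 rose in every pool of both tissues and Mrps6 in 37 cortex and 34 liver pools.

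Other members share exon bases on the same strand with a neighbour: Mrpl33 with Bre, Mrpl53 with Ccdc142, Mrps24 with Urgcp and Mrps34 with Nme3. In cortex Bre changed by -0.38 ± 0.02 (limma, adjusted p = 1.38e-28) and Mrpl33 by -0.05 ± 0.03 (limma, adjusted p = 0.123). Ccdc142 changed by -0.66 ± 0.03 (limma, adjusted p = 6.91e-31) and Mrpl53 by 0.03 ± 0.03 (limma, adjusted p = 0.312). Urgcp changed by -0.10 ± 0.01 (limma, adjusted p = 8.82e-10) and Mrps24 by 0.11 ± 0.03 (limma, adjusted p = 0.00292), while Nme3 changed by -0.11 ± 0.03 (limma, adjusted p = 0.00471) and Mrps34 by -0.08 ± 0.03 (limma, adjusted p = 0.0336). The call of Mrps34 was lost without BXD90, where it changed by -0.76 against a median of -0.03 over pools, and also among the 33 BXD/RwwJ lines alone and with the parental pools averaged. Counts of these members are less certain for that reason.

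The next largest rises in cortex were in Mrpl35, Mrpl42, Mrpl21, Mrps12 and Mrpl19. Mrpl19, a large subunit protein of bacterial descent, ran from 4.67 through a median of 4.88 to 5.00 log2 CPM in Ctr and from 4.92 through a median of 5.06 to 5.19 in SD, and rose in 39 of 39 pools by 0.20 ± 0.02 (limma, adjusted p = 1.04e-18). Mrps12, a protein of the decoding centre, ran from 4.38 through a median of 4.58 to 5.01 in Ctr and from 4.60 through a median of 4.78 to 5.00 in SD. It rose in 37 pools, by 0.21 ± 0.02 (limma, adjusted p = 6.48e-14). Both genes had overlapping ranges. Mrps12 starts 171 bases from Sars2, the mitochondrial seryl-tRNA synthetase gene on the other strand, which fell (-0.19 ± 0.03; limma, adjusted p = 3.1e-08).

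Mrpl35 rose in 39 of 39 pools, by 0.25 ± 0.10 (limma, adjusted p = 0.0261). Its level differed widely between lines, and with the Ctr and SD pools of a line paired the adjusted p (limma) was 1.12e-18. Among the 33 BXD/RwwJ lines alone the unpaired adjusted p (limma) was 0.0532, past the threshold no longer. Mrpl21 rose in 34 pools (0.21 ± 0.03; limma, adjusted p = 2.36e-10). Mrpl42, particular to mitochondria, rose in 35 (0.21 ± 0.04; limma, adjusted p = 1.36e-06), and 8.64% of its 100-base windows have an identical copy elsewhere in the genome.

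Falls in cortex were led by Mrpl55 and Mrpl2. Mrpl2, a protein near the peptidyl transferase centre, ran from 4.19 through a median of 4.50 to 4.81 log2 CPM in Ctr and from 3.97 through a median of 4.26 to 4.44 in SD, with overlapping ranges. It fell in 38 of 39 pools (-0.23 ± 0.03; limma, adjusted p = 1.46e-12). Mrpl55 fell in 33 pools (-0.23 ± 0.10; limma, adjusted p = 0.0322), from a median of 3.43 to 3.10. With lines paired its adjusted p (limma) was 1.67e-07.

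Mrpl16, Mrps28, Mrps18b and Mrpl11 came next. Mrpl16 fell in 37 pools (-0.18 ± 0.02; limma, adjusted p = 3.49e-11) and Mrps28 in 37 (-0.17 ± 0.03; limma, adjusted p = 5.89e-08). Mrpl11, of the stalk base that meets translation factors, fell in 36 (-0.17 ± 0.03; limma, adjusted p = 1.43e-06). Mrps18b fell in 38 (-0.17 ± 0.03; limma, adjusted p = 3.8e-07), and 51.6% of its windows have an identical copy elsewhere. Its paralogues did not pass, with Mrps18a at 0.04 ± 0.02 (limma, adjusted p = 0.0842) and Mrps18c at 0.04 ± 0.03 (limma, adjusted p = 0.22), although both passed without BXD90.

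In liver fewer members changed. Of the 76, 11 rose, where 21.5% of all liver genes rose, and 4 fell, where 22.6% of all liver genes fell, and 61 did not pass. The median change was 0.01 log2 CPM against -0.0015 over all genes. With the pools of a line paired, 17 rose and 7 fell. In that paired fit 3672 of all 14107 liver genes rose and 3931 fell, so that 53.9% were called. Without BXD70, 10 rose and 12 fell, so that rises made up 45.5% of the calls in place of 73.3%, and the median change became -0.0051. In that fit 22.6% of all liver genes rose and 22.9% fell. The falls gained without BXD70 were Mrpl14, Mrpl2, Mrpl40, Mrps11, Mrps17, Mrps28, Mrps34 and Mrps35, and the rise lost was Mrpl44. With pairing as well, 16 rose and 21 fell, where 27.4% of all liver genes rose and 28.6% fell.

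With all pools, the 4 liver falls were in small subunit genes. Of the small subunit genes 4 of 26 rose and 4 fell, while 7 of 49 large subunit genes rose and 0 fell by limma, against 2 falls at an unadjusted p under 0.05 and 2 by voom. With lines paired, 13 large subunit genes rose and 2 fell, and 4 small subunit genes rose and 5 fell. Without BXD70 the falls gained included the large subunit genes Mrpl14, Mrpl2 and Mrpl40. The difference between the subunits was not tested. Mrps9 ran from 6.02 through a median of 6.27 to 6.58 log2 CPM in Ctr and from 5.76 through a median of 6.09 to 6.75 in SD, with overlapping ranges, and fell in 35 of 39 pools (-0.15 ± 0.03; limma, adjusted p = 3.8e-05). Mrps10 fell in 34 pools (-0.13 ± 0.03; limma, adjusted p = 0.000143), with copies elsewhere for 18.4% of its windows. Mrps26 (-0.11 ± 0.03; limma, adjusted p = 0.00846) and Mrps27, a pentatricopeptide repeat protein (-0.08 ± 0.03; limma, adjusted p = 0.012), lost their calls among the 33 BXD/RwwJ lines alone, with adjusted p (limma) of 0.128 and 0.0889.

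After Mrps6, the liver rises were led by Mrpl36, Mrpl34, Mrpl15, Mrps23 and Mrpl47. Mrpl36, a large subunit protein of bacterial descent, ran from 5.03 through a median of 5.27 to 5.50 log2 CPM in Ctr and from 5.22 through a median of 5.40 to 6.06 in SD, with overlapping ranges. It rose in 35 of 39 pools (0.15 ± 0.03; limma, adjusted p = 1.64e-05). Mrpl34 rose in 34 pools (0.15 ± 0.04; limma, adjusted p = 0.000388), Mrpl15 in 36 (0.13 ± 0.03; limma, adjusted p = 0.000291) and Mrps23 in 30 (0.12 ± 0.03; limma, adjusted p = 0.000162). Mrpl47 rose in 28 (0.11 ± 0.04; limma, adjusted p = 0.0244), a call lost without the lines with fewer mice (limma, adjusted p = 0.06).

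Set side by side without pairing, 9 of 76 members were called up in both tissues, where 12.5% of the 12695 genes listed in both were. Called down in both were 2, where 11.9% were. One, Mrps27, was up in cortex (0.08 ± 0.02; limma, adjusted p = 0.00353) and down in liver, as were 4.96% of all those genes. With lines paired these counts change, as Mrpl9 was gained as a rise in both tissues and Mrpl2 as a fall in liver. Paired counts over both tissues are not given. The liver change minus the cortex change of each pool was then tested directly. Past the threshold, it was below 0 for 24 members, where 29.6% of the 12695 genes listed in both tissues were below. It was above 0 past the threshold for 9 members, where 28% of those genes were above. Without BXD70 and BXD90, 38 were below 0 past the threshold, a count given here without the share over all genes.

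Among all 76 members the widest negative difference was in Mrps35, a small subunit protein particular to mitochondria, which rose in 39 of 39 cortex pools (0.19 ± 0.02; limma, adjusted p = 5.86e-13) but in 14 of 39 liver pools (-0.05 ± 0.03; limma, adjusted p = 0.135). The difference (-0.24 ± 0.03; limma, adjusted p = 5.83e-10) was negative in 36 pools. Mrps11 (-0.21 ± 0.04; limma, adjusted p = 5.47e-06) and Mrpl46 (-0.18 ± 0.03; limma, adjusted p = 2.49e-05), which share 173 exon bases on opposite strands, differed in the same direction. Mrpl35 (-0.19 ± 0.02; limma, adjusted p = 1.6e-08) and Mrpl19 (-0.18 ± 0.02; limma, adjusted p = 5.03e-08) did so too.

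Among the members past the threshold, the widest positive differences were in Mrpl11 (0.19 ± 0.04; limma, adjusted p = 1.87e-05), Mrpl16 (0.18 ± 0.03; limma, adjusted p = 2e-06), Mrpl55 (0.17 ± 0.05; limma, adjusted p = 0.00241) and Mrpl2 (0.15 ± 0.03; limma, adjusted p = 7.88e-05), each of which fell in cortex. Mrpl23 had a larger difference that did not pass (0.22 ± 0.11; limma, adjusted p = 0.087). Mrpl38, at -0.05 ± 0.02 in cortex and 0.08 ± 0.03 in liver, followed (0.13 ± 0.03; limma, adjusted p = 0.000456).

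**Figure D2:**
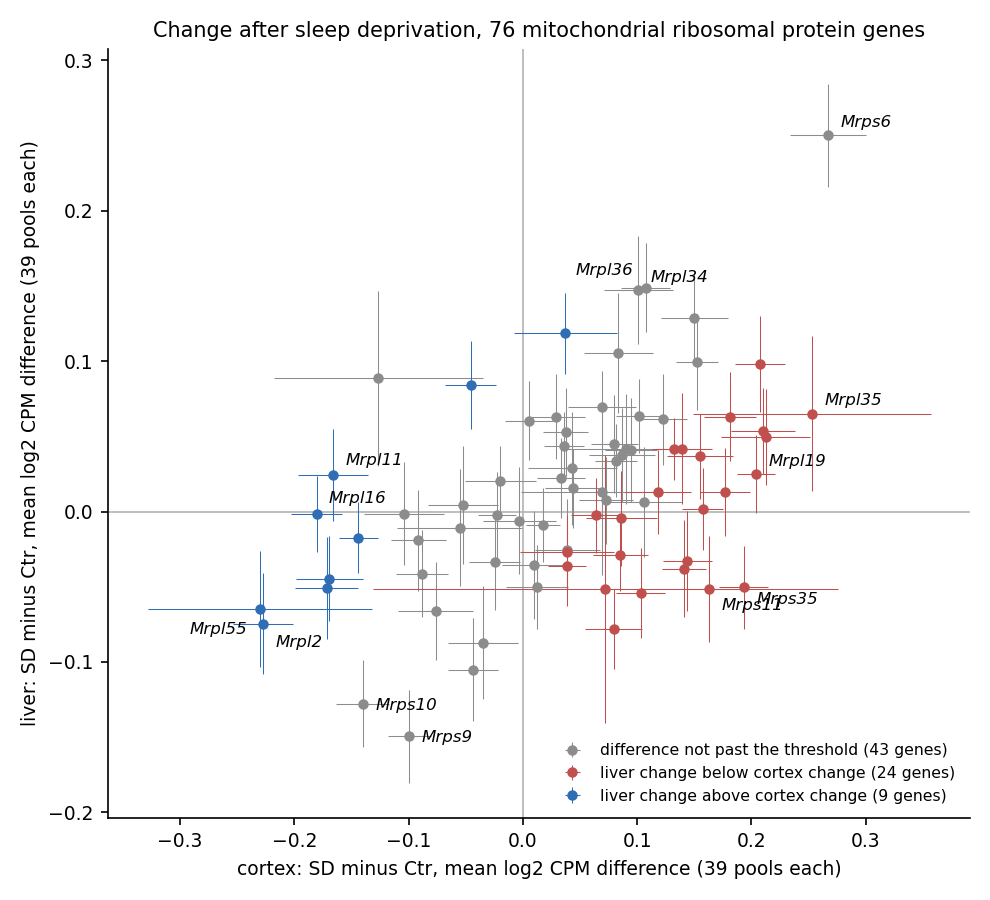
Change with SD (log2 CPM, mean over 39 pools) of the 76 members in cortex (x axis) and in liver (y axis), bars giving the SE, coloured by the test of the liver change minus the cortex change. Mrps6 has the largest rise on both axes. Past the threshold of that test, the liver change was below the cortex change for 24 members and above it for 9.

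The median change over the 76 members was also taken pool by pool. In cortex it was above 0 in 36 of 39 pools. It was -0.30 log2 CPM in BXD90, then -0.02 in BXD56 and -0.0077 in BXD89, and it was highest in BD-F1 at 0.18, BXD100 at 0.12 and BXD97 at 0.11. The SD over the pools other than BXD90 was 0.04. In liver it was above 0 in 21 pools and below in 18. It was 0.57 in BXD70, where 76 of 76 members were higher in SD, then 0.14 in BXD45 and 0.12 in BXD56, and it was lowest in DB-F1 at -0.21, B6-1 at -0.17 and BXD83 at -0.13. The SD over the pools other than BXD70 was 0.08. In DB-F1 liver the members' median offset from their medians over pools was 0.17 in Ctr and -0.05 in SD. Its Ctr library held 5034166 reads, the fewest of the Ctr liver libraries.

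**Figure D3:**
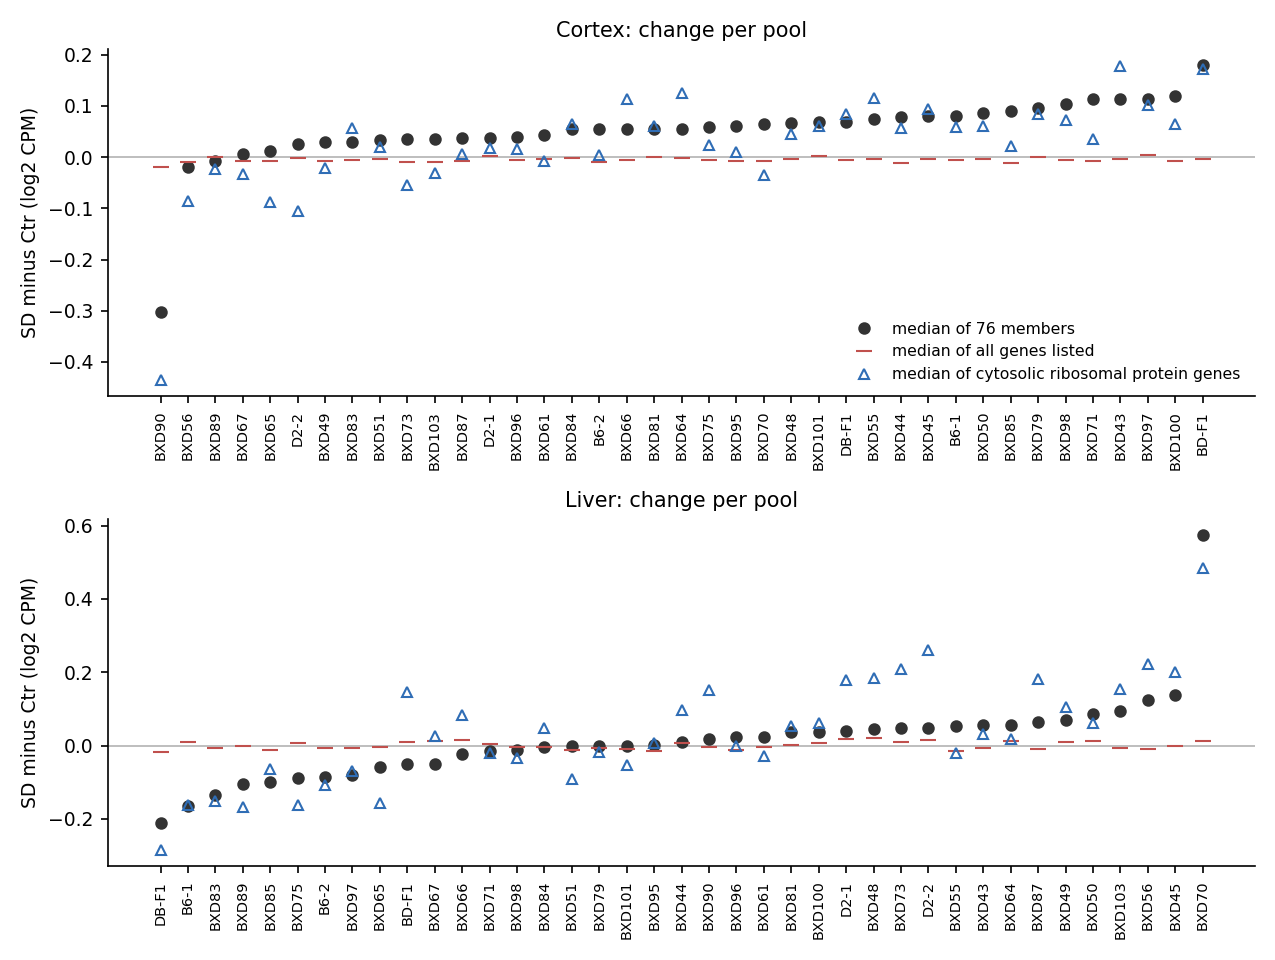
Median SD minus Ctr change (log2 CPM) of the 76 members (black points), of all genes (red dashes) and of the cytosolic ribosomal protein genes (blue triangles) in each of 39 pools, ordered by the members' value, in cortex and liver. BXD90 at -0.30 in cortex and BXD70 at 0.57 in liver stand apart from the other pools.

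Other genes stood apart in the same pools. In BXD90 cortex the cytosolic ribosomal protein genes had a median change of -0.44 log2 CPM and the nuclear respiratory chain genes -0.43, and in BXD70 liver these were 0.49 and 0.50. In the Ctr cortex library of BXD90 the short genes of the table (up to 2382 exon bases) had a median offset of 0.24 from the pools' median and the long genes (from 5679 exon bases) -0.26. In the SD liver library of BXD70 these offsets (up to 2277 and from 5550 exon bases) were 0.44 and -0.66. Of the 76 members 52 were among the short genes in cortex and 50 in liver.

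The members' median change moved with this length contrast over all pools. Between the change of short minus long genes and the members' median change, over 39 pools, Pearson's r was 0.93 and Spearman's rho 0.73 in cortex, and 0.96 and 0.92 in liver. Each had a permutation p of 1e-05, the smallest that 100000 permutations can give, and an adjusted p of 1.5e-05 over 3 relations. Without the 2 pools farthest from the median contrast, r was 0.70 in cortex and 0.89 in liver (permutation p = 1e-05 for each). As most members are short genes they share this property with the contrast, and its part in the line values was not tested. The third relation, of the members' median change in cortex to that in liver, had r = -0.04 (permutation p = 0.77, adjusted p = 0.77) and rho = -0.10 (permutation p = 0.54, adjusted p = 0.54), and r = -0.01 (permutation p = 0.94) without 2 pools.

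**Figure D4:**
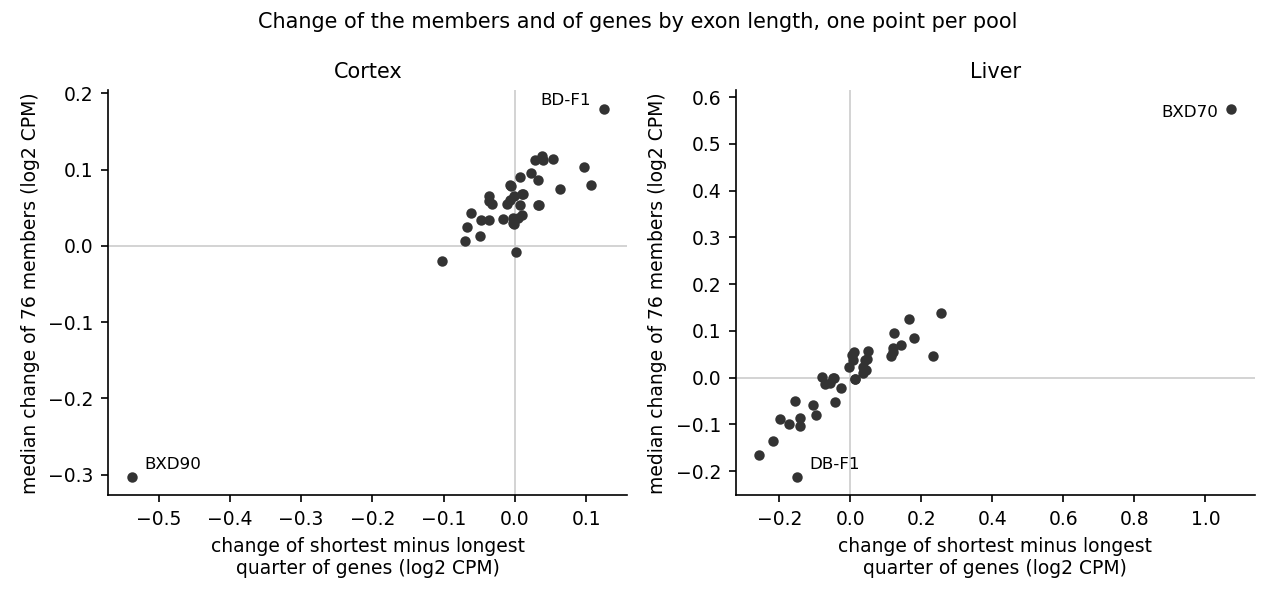
Median SD minus Ctr change of the 76 members (log2 CPM) in each of 39 pools against the median change of short minus that of long genes by exon length (log2 CPM), in cortex and liver, with 1 point per pool and the exon-length limits given in the text. Pearson's r is 0.93 in cortex and 0.96 in liver, and BXD90 and BXD70 lie at the far ends.

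Single changes were called outlying where they lay over 3.5 robust SDs (from the median absolute deviation over pools) from the gene's median change. In cortex 34 of 2964 changes were outlying, 1.15% against 1.10% over all genes, and 31 of them were in BXD90, where 19.8% of all genes were outlying. The other 3 were Mrps6 in BXD56, where 6.33% of all genes were outlying, Mrpl42 in BXD103 (-0.26 against a median of 0.24 over pools) and Mrpl19 in BXD64 (0.44 against a median of 0.20 over pools). In liver 64 were outlying, 2.16% against 1.08%, with 57 in BXD70, where 21.9% of all genes were outlying. Outside BXD70 there were 7, among them Mrpl53 in BXD73 (0.43 against a median of 0.05 over pools) and Mrpl47 in BXD83 (-0.42 against a median of 0.14 over pools), and 5 in DB-F1 (Mrpl15, Mrpl30, Mrpl42, Mrpl48 and Mrps31, each below its median), where 3.37% of all genes were outlying.

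The SD of a member's change over pools had a median of 0.13 log2 CPM in cortex, against 0.14 over all genes, and 0.15 in liver, against 0.25. It was widest for Mrpl23 (0.50 in cortex and 0.36 in liver) and Mrps36 (0.37 and 0.34), genes with identical copies elsewhere for 74.4% and 69.6% of their windows. Mrpl55 (0.23) and Mrps24 (0.21) came next in cortex, and Mrps28 (0.22) and Mrpl47 (0.21) in liver. Mrpl23 and Mrps36 had few reads in cortex. Over the Ctr cortex pools Mrpl23 ran from -1.67 to 0.14 log2 CPM and Mrps36 from -0.44 to 0.68. The parts of low counts and of identical copies in these spreads were not tested.

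Levels differed between lines for 33 of 76 members in cortex, where 55.2% of all cortex genes differed, and for 40 in liver, where 57.9% of all liver genes differed (limma, moderated F test over lines, Benjamini-Hochberg). The SD of the Ctr level over pools had a median over members of 0.11 log2 CPM in cortex and 0.11 in liver. In cortex it was widest for Mrpl48 (0.92), Mrpl35 (0.46), Mrpl55 (0.38) and Mrpl23 (0.38). In liver it was widest for Mrpl48 (0.39), Mrpl23 (0.24), Mrps36 (0.24) and Mrpl35 (0.23). Of these, Mrpl23 did not pass the test between lines (limma, moderated F test, adjusted p = 0.157 in cortex and 0.698 in liver). Mrps36 did not pass it in liver (limma, moderated F test, adjusted p = 0.558).

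Mrpl48 (chromosome 7, minus strand, mm9 positions 107694265 to 107756811), particular to mitochondria, fell into separate levels. In Ctr cortex 15 pools lay between 2.16 and 2.80 log2 CPM and 24 between 3.77 and 4.64, and 39 of 39 pools were on the same side in SD. In Ctr, the B6 pools had 4.30 and 4.30, the D2 pools 2.73 and 2.80, and BD-F1 and DB-F1 3.78 and 3.77. In liver the widest gap was narrower, from 5.40 to 5.69, with 39 of 39 pools on the same side as in cortex. B6 exceeded D2 3.29-fold in cortex (1.72 ± 0.09; limma, adjusted p = 1.61e-09) and 1.54-fold in liver (0.62 ± 0.07; limma, adjusted p = 4.02e-05), over 4 libraries a strain. Mrpl48 shares 1865 exon bases on the same strand with D630004N19Rik, which is not listed in the tables used here.

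Mrpl35 (chromosome 6, minus strand, mm9 positions 71762997 to 71773804), a large subunit protein of bacterial descent, showed a similar split. In Ctr cortex 11 pools lay between 3.69 and 4.00 log2 CPM and 28 between 4.40 and 4.99. The B6 pools had 4.78 and 4.76, the D2 pools 3.76 and 3.70, and BD-F1 and DB-F1 4.40 and 4.41. B6 exceeded D2 in cortex (0.98 ± 0.06; limma, adjusted p = 6.26e-09) and in liver (0.51 ± 0.07; limma, adjusted p = 0.000112), and 38 of 39 pools were on the same side of the widest gap in both tissues.

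Mrpl55 (chromosome 11, plus strand, mm9 positions 59015988 to 59019636), also of the large subunit and of bacterial descent, ran from 3.01 to 4.27 log2 CPM over Ctr cortex pools. B6 exceeded D2 in cortex (0.77 ± 0.10; limma, adjusted p = 2.32e-05), while the liver difference did not pass (0.15 ± 0.08; limma, adjusted p = 0.216). Mrpl55 starts 101 bases from 2610507I01Rik, a noncoding RNA gene on the other strand. In Ctr cortex that gene lay between 0.60 and 1.44 in 25 pools and between 3.64 and 4.69 in 14, and 13 of those 14 were among the 14 pools with the highest Mrpl55. In liver the same 14 pools lay above its widest gap.

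**Figure D5:**
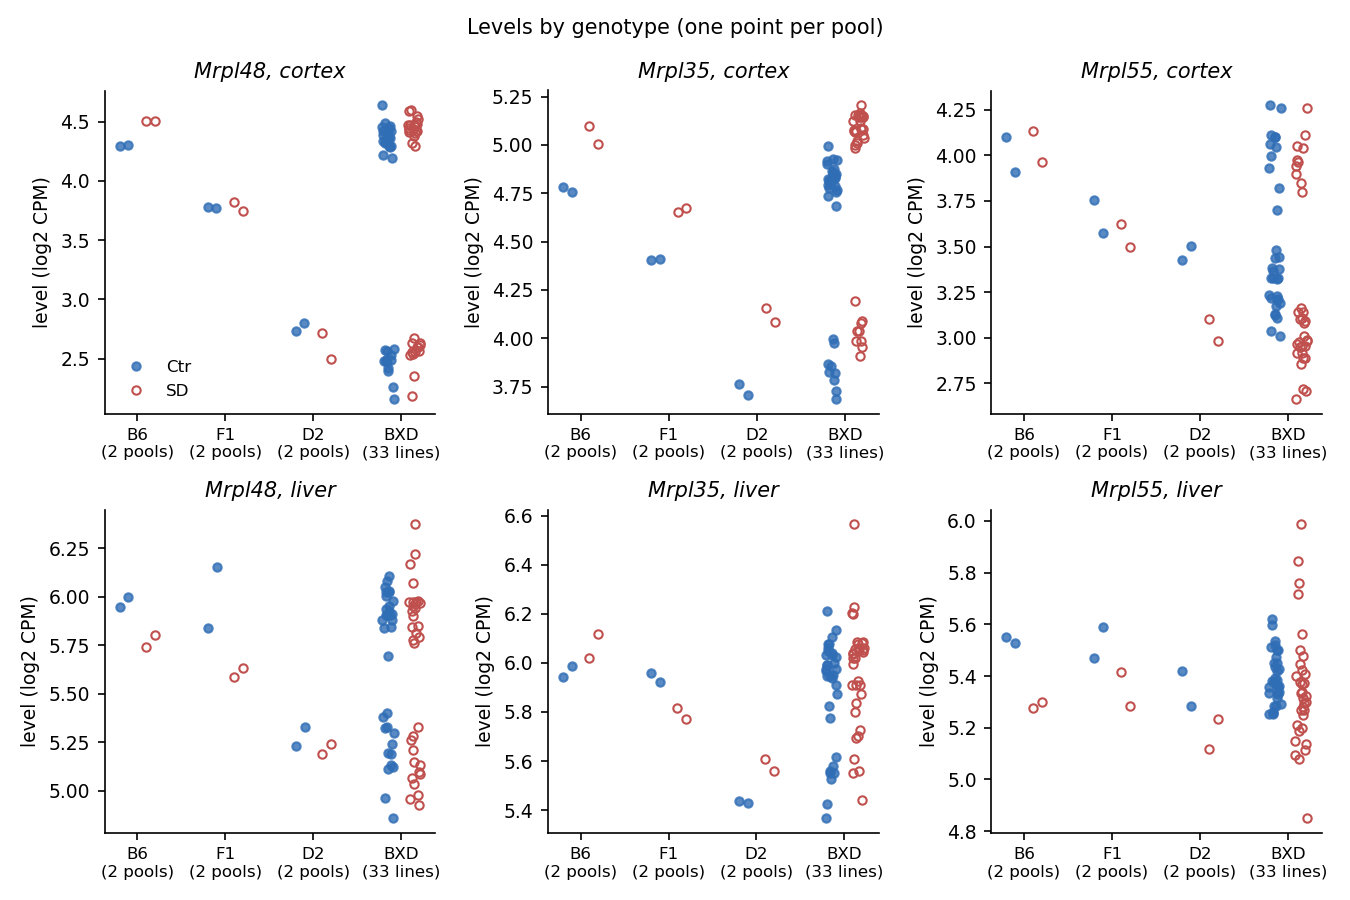
Levels (log2 CPM) of Mrpl48, Mrpl35 and Mrpl55 in cortex and liver by genotype, 1 point per pool, Ctr filled blue and SD open red. For Mrpl48 in Ctr cortex no pool lies between 2.80 and 3.77.

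Between the parental strains, 10 members were higher in B6 in cortex, where 13.9% of all cortex genes were higher, and 4 were lower, where 11.6% were lower. Without D2-1 these counts were 6 higher and 2 lower, without B6-2 the lower count was 2, and in the Ctr pools alone it was 1. In liver 3 were higher, where 9.47% of all liver genes were, and 1 was lower, where 8.42% were. Mrpl41, particular to mitochondria, was higher in B6 in cortex (0.77 ± 0.12; limma, adjusted p = 0.0002) and in liver (0.34 ± 0.09; limma, adjusted p = 0.0167). Its liver call was lost in the Ctr pools alone (limma, adjusted p = 0.0641) and without B6-2, D2-1 or D2-2 (limma, adjusted p = 0.22, 0.0794 and 0.0869). Mrps18b was lower in B6 in liver (-0.23 ± 0.07; limma, adjusted p = 0.0293), a call lost in the Ctr pools alone and without any 1 of the 4 parental pools (limma, adjusted p from 0.0731 without B6-2 to 0.209 without B6-1). The reference genome is that of C57BL/6J, and the effect of DBA/2J variants on mapping was not tested.

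Levels of different genes were compared only per length, as the mean Ctr log2 CPM per kilobase of the median coding transcript. In cortex this level was highest for Mrps18a (5.45), Mrpl28 (5.42) and Mrpl20 (5.41), which lay closer to each other than the SD over pools of any of them (0.08, 0.09 and 0.10). The lowest levels were in Mrpl23 (0.05), Mrps36 (0.84) and Mrpl47 (1.62). Of these genes' 100-base windows, 74.4%, 69.6% and 0% in that order have an identical copy elsewhere in the genome. The effect of such copies on the levels was not tested. In liver it was highest for Mrpl52 (6.88), Mrpl13 (6.79) and Mrpl28 (6.71) and lowest for Mrps25 (2.50), Mrps26 (3.35) and Mrpl23 (3.55).

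Beside the members stand other parts of the same machinery. As a background for the counts below, 33.0% of all genes rose and 35.4% fell in cortex, and 21.5% rose and 22.6% fell in liver. Of the cytosolic ribosomal protein genes 15 of 75 rose and 3 fell in cortex, with a median change of 0.03 log2 CPM, and 21 rose and 5 fell with lines paired. In liver 0 of 77 were called by limma or voom, with 1 up at an unadjusted p under 0.05 and 4 up with lines paired. Of the nuclear respiratory chain genes 14 of 77 rose and 14 fell in cortex and 1 of 75 rose and 2 fell in liver. With lines paired these were 18 up and 20 down in cortex and 3 up and 2 down in liver. Of the mitochondrial ribosomal proteins with other names 3 of 7 rose and 2 fell in cortex, led by Gadd45gip1 (0.14 ± 0.02; limma, adjusted p = 2.25e-07) and the peptidyl-tRNA hydrolase Ict1 (-0.10 ± 0.02; limma, adjusted p = 0.00011). With lines paired Ptcd3 fell there too. In liver 1 of 7 rose and 1 fell, Mrp63 up (0.10 ± 0.03; limma, adjusted p = 0.00457) and Ptcd3 down (-0.07 ± 0.02; limma, adjusted p = 0.0125).

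Factors that assemble the mitochondrial ribosome changed in both directions. Of those listed 4 of 19 rose and 10 fell in cortex and 8 of 19 rose and 7 fell in liver. Both directions together, 73.7% were called in cortex, where 68.4% of all genes were, and 78.9% in liver, where 44.2% were. Trub2, a pseudouridine synthase of mitochondrial RNA, fell in cortex (-0.31 ± 0.02; limma, adjusted p = 5.71e-29), with SD above Ctr in 0 of 39 pools, and in liver (-0.73 ± 0.06; limma, adjusted p = 1.74e-19), with SD above Ctr in 1. Fastkd2, which acts on the large ribosomal RNA, rose in cortex (0.25 ± 0.02; limma, adjusted p = 3.44e-23), and Noa1, a GTPase of small subunit assembly, rose in liver (0.30 ± 0.03; limma, adjusted p = 1.58e-15).

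Translation factors and charging enzymes also moved both ways. In cortex 75% of the translation factors and 70.6% of the mitochondrial tRNA synthetases were called, where 68.4% of all genes were. In liver 75% and 64.7% were called, where 44.2% of all genes were. Of the translation factors 7 of 12 rose and 2 fell in cortex, where the largest changes were in the ribosomal GTPase Guf1 (-0.44 ± 0.02; limma, adjusted p = 1.69e-31) and the release factor Mtrf1 (-0.43 ± 0.07; limma, adjusted p = 2.17e-07), and 3 fell with lines paired. In liver 4 of 12 rose and 5 fell, led by Mtrf1l (0.31 ± 0.04; limma, adjusted p = 3.8e-09) and Mtrf1 (-0.18 ± 0.03; limma, adjusted p = 7e-06). Of the mitochondrial tRNA synthetases 5 of 17 rose and 7 fell in cortex, led by the prolyl enzyme Pars2 (-0.55 ± 0.03; limma, adjusted p = 5.08e-27) and the glutamyl enzyme Ears2 (0.28 ± 0.03; limma, adjusted p = 4.03e-12). In liver 4 of 17 rose and 7 fell, led by Sars2 (-0.26 ± 0.03; limma, adjusted p = 4.47e-10) and the asparaginyl enzyme Nars2 (-0.20 ± 0.03; limma, adjusted p = 1.64e-08).

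Of the 10 regulators of mitochondrial biogenesis 8 rose in cortex and 0 fell by limma, with 0 falls also at an unadjusted p under 0.05, by voom and with lines paired. Gabpa and Gabpb1, subunits of the ETS factor GABP, rose most (0.41 ± 0.03; limma, adjusted p = 8.33e-26, and 0.33 ± 0.02; limma, adjusted p = 3.72e-22), each in 39 of 39 pools. In liver 2 of 10 rose, the coactivator gene Pprc1 (0.31 ± 0.06; limma, adjusted p = 1.52e-05) and Yy1 (0.16 ± 0.02; limma, adjusted p = 2.75e-10), and with lines paired 4 rose and 1 fell. Of the mitochondrial transcription genes 2 of 9 rose and 2 fell in cortex, led by Pnpt1 (-0.10 ± 0.03; limma, adjusted p = 0.000493) and Slirp (0.08 ± 0.03; limma, adjusted p = 0.0181), and 3 of 9 rose and 2 fell in liver, led by Mterf1a (0.23 ± 0.08; limma, adjusted p = 0.0178) and Tefm (0.15 ± 0.03; limma, adjusted p = 0.000102). Of the matrix chaperones and proteases 3 of 8 rose and 2 fell in cortex and 2 of 8 rose and 1 fell in liver, or 3 and 1 with lines paired. The partner chaperonins Hspe1 and Hspd1 led in cortex (0.34 ± 0.03; limma, adjusted p = 4.79e-19, and 0.25 ± 0.01; limma, adjusted p = 4.74e-28) and in liver (0.19 ± 0.03; limma, adjusted p = 3.63e-06, and 0.10 ± 0.03; limma, adjusted p = 0.0014).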

How the data were processed

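Of 172 RNA-seq libraries, 156 from 39 pools were tested. Those of 4 BXD/TyJ lines were kept apart except in an alternative fit of all 43 pools. The deposited values are log2 CPM per gene. Per the labels and the study's methods, the authors mapped reads to mm9 with STAR, counted them by strand with HTSeq on RefSeq genes, left out genes with low mean counts and normalized with edgeR, each tissue apart. The values gave whole reads for 100% of entries within 0.02 reads; voom on these reads called 37 members up and 13 down in cortex, and 11 up and 7 down in liver. The main test was limma 3.58.1 in R 4.3.3 (variance trend, SD against Ctr, no pairing, Benjamini-Hochberg), used on log2 CPM in place of the study's voom. Ctr and SD pools of a line share a genotype. The correlation of their deviations from the condition means was over 0.1 in 39 of 39 lines (lowest 0.30 in cortex and 0.17 in liver), so fits paired by line were run too. They are given where they change a count of the members or move another count by over 1.5 times. They are not given for counts by start region or over both tissues. Permutation tests were two-sided with 100000 random permutations, and their p-values were adjusted with scipy 1.17.1. Gene positions, lengths and copies came from the mm9 genome with GENCODE genes, and start regions from RefSeq. The scripts were tested on simulated data.

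Named genes are, per tissue, the 6 largest rises and falls, the 4 widest spreads of level and of change, the 4 largest strain differences, the 3 highest and lowest levels per kilobase, the 5 largest tissue differences in each direction, the Mrps18 paralogues and the 2 largest changes of each list. Members with outlying changes or overlapping neighbours, their neighbours, Mrps27 in cortex, Mrps35 within tissues, Mrpl23 between tissues, Mrpl32 and genes whose calls were gained or lost were named after their values were seen. The members and lists were chosen with earlier results of these data known.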

Additional observations from a re-analysis of the deposited data

Results flagged for a closer look

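The SD change differed between the tissues for 33 of the 76 members, by a limma test of the liver change minus the cortex change of each pool. By the same test, 28% of the 12695 genes listed in both tissues were above 0 and 29.6% below. Among these 33, the widest differences above 0 were in Mrpl11 (0.19 log2 CPM), Mrpl16 (0.18), Mrpl55 (0.17), Mrpl2 (0.15) and Mrpl38 (0.13). The widest below 0 were in Mrps35 (-0.24), Mrps11 (-0.21), Mrpl35 (-0.19), Mrpl19 (-0.18) and Mrpl46 (-0.18). With the tissues not paired by pool, Mrpl55 (limma, adjusted p = 0.199) and Mrpl35 (limma, adjusted p = 0.184) did not pass.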

How the results depend on the processing

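In cortex the alternatives gave 34 to 46 members up and 12 to 15 down, and leaving out each pool in turn gave 35 to 40 up and 12 to 15 down. In liver, members up came to 17 with lines paired as a replicate block and 18 by voom with the block. Members down came to 7 with the block, 7 by voom, 8 by voom with the block, 2 among the 33 BXD/RwwJ lines alone, 12 without BXD70 and 21 without BXD70 with the block. Leaving out each pool in turn gave 10 to 13 up and 4 to 12 down in liver, and a median change from -0.0051, without BXD70, to 0.015; with the block it was also -0.0051 without BXD70. The block took away no member's call in either tissue. Past the threshold, the liver change was above the cortex change for 14 members among the 33 BXD/RwwJ lines alone. It was below the cortex change, past the threshold, for 38 members without BXD70 and BXD90, given here without the share over all genes. In the strain contrast, members lower in B6 in cortex came to 1 in the Ctr pools alone, and leaving out each parental pool gave 6 (without D2-1) to 10 higher and 2 (without B6-2 or D2-1) to 5 lower. In liver, members lower in B6 came to 2 with median-centred libraries, 2 in a fit of all 39 pools and 0 in the Ctr pools alone, and leaving out each parental pool gave 0 (without B6-1, B6-2 or D2-1) to 1. Outlying changes in cortex numbered 55 at a limit of 3 robust SDs, 7 at 5 and 5 without BXD90, and in liver 24 at 5 and 7 without BXD70. Leaving out BXD70, BXD90 or a parental pool was chosen after seeing the data. The causes were not tested. With few libraries a strain and liver libraries shallower than cortex, small differences may go uncalled.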

Other observations

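The 4 BXD/TyJ lines entered no comparison other than an alternative fit of all 43 pools. In cortex the median change over the members was -0.19 in BXD5 (14 of 76 members higher in SD), 0.06 in BXD29 (44 of 76 members higher in SD), -0.0033 in BXD29t (38 of 76 members higher in SD), 0.09 in BXD32 (46 of 76 members higher in SD). In liver it was -0.03 in BXD5 (30 of 76 members higher in SD), 0.12 in BXD29 (59 of 76 members higher in SD), -0.08 in BXD29t (15 of 76 members higher in SD), 0.10 in BXD32 (54 of 76 members higher in SD).

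Fau, a cytosolic ribosomal protein gene, starts 135 bases from Mrpl49 on the other strand. Its Ctr cortex level was 0.46 and 0.68 log2 CPM in the B6 pools and 3.32 and 3.19 in the D2 pools. In Ctr liver its level ran only from 6.06 to 6.67 over the 39 pools. The cause of the cortex difference was not tested. Mrpl49 differed between the strains in cortex by -0.24 ± 0.05 (B6 minus D2; limma, adjusted p = 0.00147).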
